A study of Mus musculus with 6 samples.

Results

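Microtubules in neurons are bundled, spaced and stabilized by microtubule-associated proteins (MAPs), and 6 classical MAP genes were followed here: Map1a, Map1b, Map2, Map4, Map6 and Mapt. They were picked by symbol from the 21958 protein-coding genes of the table, and all 6 passed the expression filter that kept 12255 genes for testing. RNA came from mouse synaptoneurosomes, which are resealed synaptic endings broken off from brain tissue, prepared from the hippocampus and adjacent cortex of FVB animals aged 6 to 8 weeks. The first group held total RNA of synaptoneurosomes that had not been stimulated (3 libraries). The second held polyribosomal RNA (3 libraries) of synaptoneurosomes given 50 µM NMDA with 10 µM glutamate for 30 s, then 120 µM of the NMDA receptor blocker APV, with a total incubation of 20 min. Each preparation was a pool of tissue from several animals. Per the study's methods, unstimulated controls stayed on ice in cycloheximide, an inhibitor of protein synthesis, while stimulated samples were warmed. Stimulation, incubation and fraction thus changed together between the groups and cannot be told apart. Neither can fewer terminals of a kind and less of an mRNA per terminal. The comparison asks which mRNAs were over- or underrepresented on polyribosomes of stimulated synaptoneurosomes relative to the total RNA of unstimulated ones. Map2 is of particular use here because its mRNA is a classical dendritic message.

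MAPs of the MAP2, tau and MAP4 kind bind the microtubule wall through short repeats that commonly end in a proline-glycine-glycine-glycine motif. MAP2 is a marker protein of dendrites, tau (Mapt) is enriched in axons, and MAP4 is found in neuronal and non-neuronal cells. MAP1A and MAP1B are each made as a precursor that is cleaved into a heavy and a light chain, and lysine-lysine-glutamate motifs in MAP1B contact microtubules. MAP6, also called stable tubule-only polypeptide, protects microtubules from cold. Phosphorylation by kinases such as MARK, GSK3 and CDK5 loosens most of these proteins from microtubules, and phosphatases reverse it.

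The coding sequences show what the family shares and how well reads of the 6 mRNAs can be kept apart. In the longest coding transcripts of Gencode vM21 (GRCm38), 2 repeats with the exact proline-glycine-glycine-glycine motif were found in Map2, 3 in Map4 and 4 in Mapt. Repeats that end in a variant of the motif were not counted. Capitals mark the codons of this motif in 1 repeat of each gene, 5′ to 3′, at coding positions 5077 to 5166 of Map2, 1840 to 1929 of Mapt and 2986 to 3075 of Map4. 
Map2: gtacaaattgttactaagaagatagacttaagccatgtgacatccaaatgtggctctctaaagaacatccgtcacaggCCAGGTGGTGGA
Mapt: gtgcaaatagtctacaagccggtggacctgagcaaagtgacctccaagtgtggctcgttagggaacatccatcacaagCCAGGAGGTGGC
Map4: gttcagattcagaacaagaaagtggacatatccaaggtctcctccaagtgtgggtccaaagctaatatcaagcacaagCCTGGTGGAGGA
The Map2 and Mapt repeats had 66 of 90 bases in common (73.3%), the Map4 and Mapt repeats 60 (66.7%) and the Map2 and Map4 repeats 57 (63.3%). These are not typical values. Over all pairs of repeats from different genes the identity ran from 38.9% to 73.3%, and the printed Map2 and Mapt repeats were the most alike. The MAP1 genes lack this repeat. Capitals mark the lysine-lysine-glutamate codons at coding positions 1972 to 2061 of Map1a, which had 3 such motifs in its whole coding sequence, and at positions 2083 to 2172 of Map1b, which had 18.
Map1a: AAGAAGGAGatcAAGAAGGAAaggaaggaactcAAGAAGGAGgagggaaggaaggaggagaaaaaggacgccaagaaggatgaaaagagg
Map1b: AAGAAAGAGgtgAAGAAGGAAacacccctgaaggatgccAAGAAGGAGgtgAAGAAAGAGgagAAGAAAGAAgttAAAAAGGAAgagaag
The longest exact run shared by any pair of the 6 genes' transcripts was 26 bases, between Map1a and Map1b, and every other pair shared at most 17 bases. Runs of that size are much shorter than the sequenced reads. The genes lie on different chromosomes in GRCm38, at chr2:121289600-121310832 (Map1a), chr13:99421464-99516602 (Map1b, the only one on the minus strand), chr1:66175273-66442583 (Map2), chr9:109931460-110083955 (Map4), chr7:99267447-99337137 (Map6) and chr11:104231390-104332090 (Mapt). Map1a overlaps Ppip5k1, an inositol pyrophosphate kinase gene on the opposite strand that is also in the table. The study's methods describe strand-specific libraries. The sources used here do not say whether reads were also counted by strand, so part of the Map1a count could come from its neighbour. In CPM (TMM-scaled counts relative to library size, in parts per 1e6), Ppip5k1 reached 54.8 ± 5.93 in total RNA and 36.0 ± 3.77 on polyribosomes (SD, n = 3).

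All 6 mRNAs were detected in every library. Library totals ran from 1044955 counts (total RNA replicate 3) to 7361580 counts (polyribosome replicate 1), and the 6 genes together took between 0.661% and 0.785% of them. The least counted value was Map6 in total RNA replicate 3, with 72 counts, and the most counted was Map2 in polyribosome replicate 1, with 20425. Markers of other brain cells were present too. Astrocyte markers summed to between 32962 and 37411 CPM in total RNA and to between 41885 and 44165 CPM on polyribosomes, with 11 of 11 markers at a positive log2 fold change (higher on polyribosomes) and 1 of them past the threshold of an adjusted p under 0.01, Ntsr2 (log2 fold change 1.05 ± 0.18 SE, edgeR adjusted p = 0.00386). Oligodendrocyte markers summed to between 8177 and 11598 CPM against 11323 to 15447 CPM, with 1 of 9 past the threshold, the myelin claudin Cldn11 (0.83 ± 0.17, edgeR adjusted p = 0.00751). Microglial markers summed to between 541 and 689.6 CPM against 763 to 914 CPM, endothelial markers to between 311 and 332 CPM against 293 to 538 CPM, and neuronal markers to between 8801 and 9991 CPM against 9277 to 11258 CPM. In these 3 lists edgeR called 0 genes. DESeq2 called 5 of 11 astrocyte markers, 2 of 9 oligodendrocyte markers and 1 of 11 neuronal markers higher, and none of the microglial or endothelial ones. At an unadjusted p under 0.05 edgeR had 7 of 11 astrocyte, 4 of 9 oligodendrocyte, 3 of 8 microglial, 2 of 7 endothelial and 4 of 11 neuronal markers higher, and 2 neuronal markers lower. With the preparation as a block (edgeR), the calls were 7 astrocyte, 4 oligodendrocyte, 3 microglial, 1 endothelial and 4 neuronal markers higher and 2 neuronal markers lower. Slc1a2 made up most of the astrocyte sum, at 27872 ± 1812 CPM in total RNA and 31981 ± 1587 CPM on polyribosomes (SD, n = 3). Its log2 fold change was 0.20 (edgeR adjusted p = 0.507). None of these markers was at 0, and the lowest group mean was 18.4 CPM. Over all genes tested, edgeR called 0.71% higher and 2.36% lower, and DESeq2 called 2.24% and 2.82%. At an unadjusted p under 0.05 (edgeR) the shares were 15.4% and 17.1%, and with the block 11.8% and 13.2%. A positive log2 fold change was found for 6135 of the 12255 genes.

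None of the 6 MAP mRNAs passed the adjusted p threshold of 0.01 in either direction (edgeR quasi-likelihood test, adjusted over 12255 genes). Of all genes tested, 0.71% were called higher and 2.36% lower on polyribosomes. DESeq2 called 0 of the 6 as well, beside 2.24% of all genes higher and 2.82% lower, and at an unadjusted p under 0.05 edgeR had 1 of the 6 higher, Map4, and 0 lower, beside 15.4% and 17.1% of all genes. With the preparation as a block, 0 of the 6 were called, although 11.8% of all genes were then called higher and 13.2% lower. In 2 of the 6 the levels of the groups did not overlap. Map4 was higher in all polyribosome libraries than in any total RNA library, as were 17.4% of all genes, and Map1b was lower, as were 18.9%. The median log2 fold change of the 6 was 0.04, beside 0.00 over all genes tested.

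**Figure D1:**
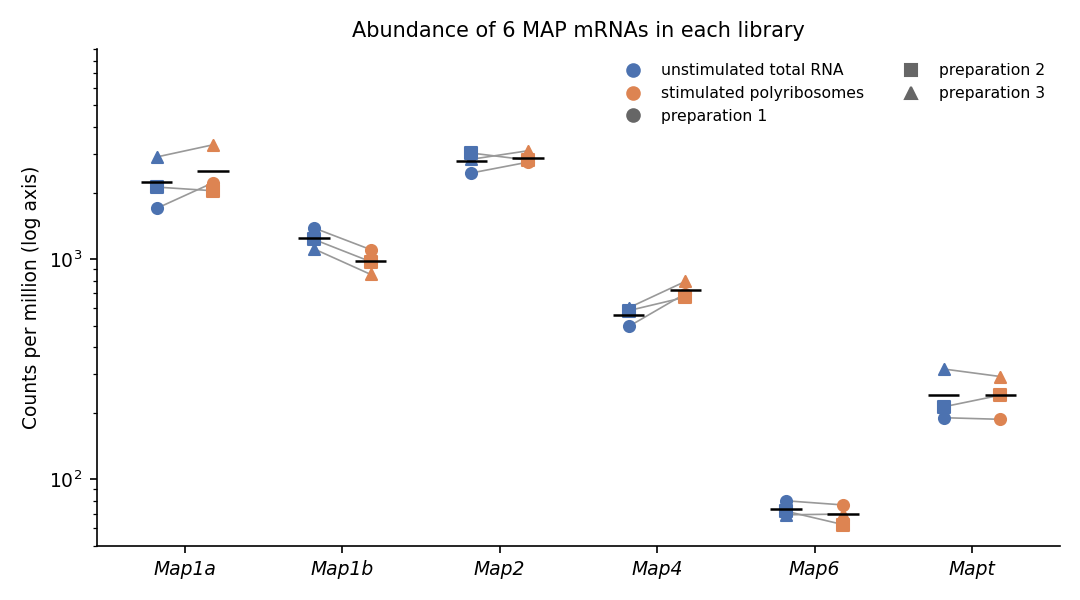
Level of each MAP mRNA (CPM, log axis) in the 3 unstimulated total RNA libraries (blue) and the 3 stimulated polyribosome libraries (orange). Symbols mark the preparations, grey lines join libraries of the same preparation and black bars are group means. Only Map1b and Map4 have groups that do not overlap, and the preparation 3 triangles stand above the others for Map1a and Mapt in both groups.

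Map2 had the highest level per kilobase of the 6 genes, and its level differed little between the groups. Its level was 2467, 3039 and 2847 CPM in total RNA replicates 1 to 3 and 2763, 2825 and 3113 CPM on polyribosomes, so the groups overlapped. The means were 2784 ± 291 and 2900.1 ± 187 CPM (SD, n = 3), a fold change of 1.04 with a 95% interval of 0.802 to 1.35 (log2 fold change 0.06 ± 0.18 SE, edgeR adjusted p = 0.849). It was higher on polyribosomes in 2 of 3 preparations, with log2 ratios of 0.16, -0.11 and 0.13, and its log2 fold change was -0.044 when libraries were scaled by total counts only. Its spread between libraries, 10.5% of the mean in total RNA and 6.43% on polyribosomes, was several times the counting error of 1.35% and 0.749%. A fit with an offset for exon length and GC content moved the log2 fold change of Map2 to 0.33 (edgeR adjusted p = 0.245, and 0.0591 with the preparation as a block), still short of the threshold.

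Map4, the MAP shared with non-neuronal cells, had the largest log2 fold change of the 6 genes, and it was positive under every scaling tried. Its level was 495, 585 and 602 CPM in total RNA and 699, 673 and 794 CPM on polyribosomes, and each polyribosome value lay above each total RNA value. The means were 561 ± 57.3 and 722 ± 63.6 CPM, a fold change of 1.29 with a 95% interval of 1.00 to 1.66 (log2 fold change 0.37 ± 0.17 SE, edgeR adjusted p = 0.151). All 3 preparations showed the direction, with log2 ratios of 0.50, 0.20 and 0.40. The blocked fit gave an adjusted p of 0.0147 (edgeR), and the blocked fit with the GC content and length offset took Map4 past the threshold, at a log2 fold change of 0.43 (edgeR adjusted p = 0.00485). The glial and the neuronal marker sums above both ran higher on polyribosomes, as Map4 did, with overlapping ranges for oligodendrocyte and neuronal markers. Single neuronal markers were divided, with 5 of 11 at a positive log2 fold change and a median of -0.009. Of the astrocyte, oligodendrocyte and microglial markers, 11 of 11, 8 of 9 and 8 of 8 were positive. The part of these cell types in the difference of Map4 was not tested.

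Mapt, the tau gene, had nearly the same mean level in both groups, and the sign of its difference changed with the scaling. It stood at 191, 214 and 317 CPM in total RNA and at 187, 241 and 293 CPM on polyribosomes, with preparation 3 the highest in each group. The means were 241 ± 67.5 and 241 ± 53.0 CPM, a fold change of 1.01 with a 95% interval of 0.732 to 1.39 (edgeR adjusted p = 0.977). The preparations went in different directions, with log2 ratios of -0.02, 0.18 and -0.11.

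Of the MAP1 genes, Map1b was lower on polyribosomes in every preparation, by nearly the same factor, and under every scaling tried. Its level was 1388, 1231 and 1115 CPM in total RNA and 1107, 976 and 854 CPM on polyribosomes, and the groups did not overlap. The log2 ratios within preparations were -0.33, -0.34 and -0.39, with an SD of 0.031. The means were 1245 ± 137 and 979 ± 126 CPM, a fold change of 0.786 with a 95% interval of 0.604 to 1.02 (log2 fold change -0.35 ± 0.18 SE, edgeR adjusted p = 0.192, and 0.0207 with the preparation as a block). The offset for exon length and GC content moved the log2 fold change of Map1b to -0.04 (edgeR adjusted p = 0.921). Map1b had the longest exon model, 14253 bases, and the lowest GC content, 47.6%, of the 6 genes.

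Map1a, the MAP1 form of mature neurons, varied more between preparations than between groups. It measured 1703, 2129 and 2915 CPM in total RNA and 2229, 2048 and 3314 CPM on polyribosomes. The means were 2249 ± 615 and 2530.4 ± 684 CPM, a fold change of 1.13 with a 95% interval of 0.797 to 1.59 (log2 fold change 0.17 ± 0.23 SE, edgeR adjusted p = 0.653). Preparation 3 stood above the mean of the others by 0.61 (log2) in total RNA and by 0.63 on polyribosomes, and Mapt did likewise by 0.65 and 0.46. For Map1b, preparation 3 lay below the others, at -0.23 and -0.28. The library-to-library spread of Map1a was 27.4% of the mean in total RNA, against a counting error of 1.45%. Its direction was not stable, since the log2 fold change was -0.07 without polyribosome replicate 3.

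Map6, which is known for cold-stable microtubules, had the lowest level per kilobase of the 6 genes. It measured 80.0, 71.7 and 69.0 CPM in total RNA and 76.6, 62.4 and 69.6 CPM on polyribosomes, and the groups overlapped. The means were 73.6 ± 5.70 and 69.5 ± 7.10 CPM, a fold change of 0.939 with a 95% interval of 0.739 to 1.19 (edgeR adjusted p = 0.742). In total RNA its spread between libraries, 7.74% of the mean, was of the size of the counting error, 8.50% (root mean square over the 3 libraries). On polyribosomes the spread, 10.2%, was above the counting error, 4.88%.

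**Figure D2:**
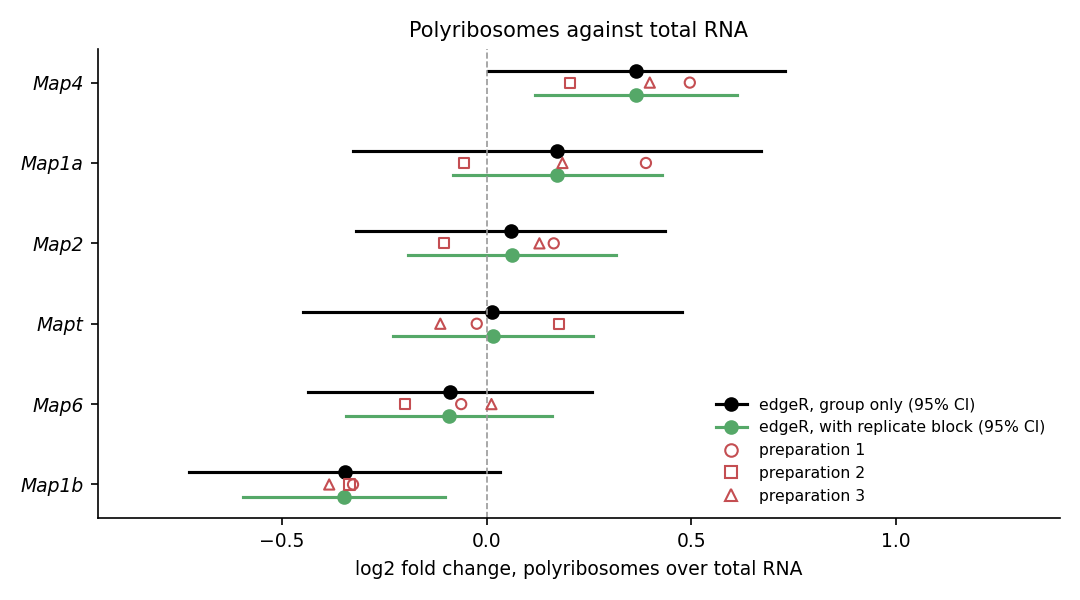
Log2 fold change of each MAP mRNA on polyribosomes over total RNA, by edgeR with group as the only term (black, 95% interval) and with the preparation as a block (green, 95% interval), and the log2 ratio within each preparation (open red symbols). Map1b lies left of 0 and Map4 right of 0 in all 3 preparations, and the other 4 genes have ratios on both sides of 0.

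The order of the genes per kilobase was steadier between libraries than the differences between groups. It holds for the exon model used, which joins the exons of all basic transcripts of a gene. The longest coding transcript was shorter to unequal degrees, from 11825 against 11914 bases for Map1a to 2250 against 6384 for Mapt. An order by transcript length was not computed, and agreement between libraries does not cover this choice. Per kilobase of exon model, Map2 led with 273 ± 28.6 CPM per kb in total RNA and 285 ± 18.3 CPM per kb on polyribosomes (SD, n = 3), followed by Map1a (189 ± 51.6 and 212 ± 57.4). Map1b came next (87.3 ± 9.61 and 68.7 ± 8.87), then Map4 (51.0 ± 5.22 and 65.7 ± 5.79), Mapt (37.7 ± 10.6 and 37.7 ± 8.29) and Map6 (12.03 ± 0.932 and 11.4 ± 1.16). Each neighbouring pair kept this order in 6 of 6 libraries except Map1b and Map4, which kept it in 5 of 6. In polyribosome replicate 3 Map4 was above Map1b per kilobase, and on polyribosomes these neighbours did not differ beyond their spread. Across libraries the ranges of Map2 and Map1a also overlapped in both groups, and those of Map4 and Mapt in total RNA, although the order held within each library. Without division by exon length, Map1a was above Map2 in both preparation 3 libraries, with count ratios of 1.02 in total RNA and 1.06 on polyribosomes. Map1b was then above Map4 in every library, with a lowest count ratio of 1.08. The level of Map2 per kilobase in total RNA ranked at the 99.4th percentile of all genes in the fit, and Map6 ranked at the 66.9th.

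Shares and ratios within a library do not depend on how libraries are scaled to each other. Map4 made up 7.83%, 8.04% and 7.66% of the summed counts of the 6 genes in total RNA and 9.89%, 9.86% and 9.41% on polyribosomes. The difference was 1.88 percentage points, with an SD of 0.195 and 0.272 within groups. Its exact permutation p of 0.1 (two-sided) is the smallest that 3 against 3 libraries allow. Shares within a library are parts of the same sum, so that of Map4 also depends on the other genes, Map1b among them. The share of Map1b was 22.0%, 16.9% and 14.2% in total RNA and 15.7%, 14.3% and 10.1% on polyribosomes, lower in all 3 preparations but with groups that overlapped (exact permutation p = 0.3, two-sided). The share of Map2 was 39.0 ± 2.81% in total RNA and 39.1 ± 2.25% on polyribosomes (exact permutation p = 0.9, two-sided), and those of Map1a, Map6 and Mapt had exact permutation p-values of 0.5, 0.6 and 0.9.

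Of the 15 pairwise count ratios among the 6 genes, 4 had groups that did not overlap, each with an exact permutation p of 0.1 (two-sided), the smallest possible. Over all 22154496 pairs of genes with a mean of at least 20 CPM, 39.3% of the ratios did not overlap, so the 4 of 15 are not above the background and the ratios are given as values. Each of the 4 involved Map4 or Map1b. The Map1b to Map4 ratio was 2.80, 2.11 and 1.85 in total RNA and 1.58, 1.45 and 1.08 on polyribosomes, a mean fold of 0.609. The Map2 to Map4 ratio was 4.98, 5.20 and 4.73 in total RNA and 3.95, 4.20 and 3.92 on polyribosomes, and its log2 change within preparations, -0.33, -0.31 and -0.27, hardly varied (SD 0.032). Map1b to Map6 was lower by a mean fold of 0.832 and Map4 to Map6 higher by a mean fold of 1.37. With the offset for exon length and GC content, from the fitted log2 fold changes, Map1b to Map6 turned to 0.19 on the log2 scale (from -0.27), Map2 to Map4 shrank to -0.09 (from -0.30), Map1b to Map4 went to -0.46 (from -0.71) and Map4 to Map6 to 0.65 (from 0.45). The Map1a to Map2 ratio was 0.690, 0.701 and 1.02 against 0.807, 0.725 and 1.06, higher in all 3 preparations with groups that overlapped (exact permutation p = 0.5, two-sided). In the Map1a to Map2 ratio, preparation 3 was the highest in both groups.

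**Figure D3:**
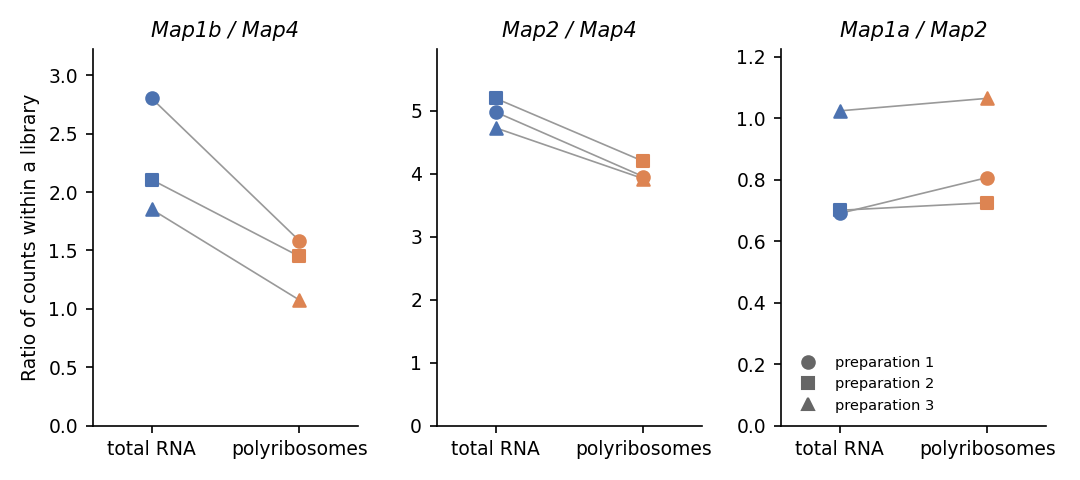
Ratio of the counts of MAP genes within each library (vertical axes start at 0) in total RNA (blue) and on polyribosomes (orange), with lines joining libraries of the same preparation. Map1b to Map4 and Map2 to Map4 are lower in all 3 polyribosome libraries than in any total RNA library, while Map1a to Map2 overlaps between the groups.

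Other messages known from dendrites gave a scale for Map2. Of 9 such mRNAs, 0 passed the threshold in edgeR (all genes: 0.71% higher and 2.36% lower) or DESeq2 (2.24% and 2.82%). At an unadjusted p under 0.05 (edgeR), 3 were higher and 0 lower, beside 15.4% and 17.1% of all genes. With the preparation as a block 5 were called higher, beside 11.8% of all genes. Their median log2 fold change was 0.31 and 8 of the 9 were positive, beside 6135 of all 12255 genes tested. Map2, at 0.06, lay between Camk2a, the alpha subunit of CaMKII (0.03 ± 0.22 SE, edgeR adjusted p = 0.950), and the immediate early gene Arc (0.27 ± 0.24, edgeR adjusted p = 0.463). Ddn, encoding dendrin, was at -0.02, and the scaffold genes Psd, Shank1, Shank3, Dlg4 and Dlgap3 were at 0.30, 0.31, 0.41, 0.41 and 0.66. The highest was Nrgn, encoding the calmodulin-binding protein neurogranin, at 244 ± 95.5 CPM in total RNA and 440.4 ± 91.1 CPM on polyribosomes (log2 fold change 0.87 ± 0.26 SE, edgeR adjusted p = 0.0374, and 8.62e-09 with the preparation as a block). Dlg4 is also among the neuronal markers. The difference between Map2 and these genes was not tested.

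Of 18 further MAP genes, 17 were tested (Map7d3 was not). Of these, edgeR called 0 higher and 1 lower (all genes: 0.71% and 2.36%), and DESeq2 gave the same counts (all genes: 2.24% and 2.82%). The one that fell was Dcx, doublecortin, a MAP of immature and migrating neurons, from 39.1 ± 5.68 to 16.8 ± 7.11 CPM (log2 fold change -1.22 ± 0.26 SE, edgeR adjusted p = 0.00961). Next lowest was Map9, at -0.67 (edgeR adjusted p = 0.0342), and highest were Tppp3, a tubulin polymerization promoting protein gene, at 0.82 (edgeR adjusted p = 0.0574), and Map1s, the short MAP1 family member, at 0.68 (edgeR adjusted p = 0.0687). At an unadjusted p under 0.05, 4 were higher and 6 lower (all genes: 15.4% and 17.1%), and with the preparation as a block 3 were called higher and 6 lower (all genes: 11.8% and 13.2%). The median log2 fold change of these 17 was -0.18.

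Genes acting on microtubule ends and dynamics (end-binding proteins, stathmins, severing enzymes) had 0 of 21 called by edgeR and by DESeq2. Over all genes, edgeR called 0.71% higher and 2.36% lower, and DESeq2 called 2.24% and 2.82%. At an unadjusted p under 0.05 (edgeR), 3 of the 21 were lower and 0 higher (all genes: 17.1% and 15.4%). The median log2 fold change of the 21 was 0.02. With the preparation as a block 1 was called higher and 3 lower (all genes: 11.8% and 13.2%). The lowest were Katna1, the catalytic katanin subunit that severs microtubules, at -0.94 (edgeR adjusted p = 0.0507), and Fign, encoding the severing enzyme fidgetin, at -0.57 (adjusted p = 0.341, edgeR). The highest were Stmn1, encoding stathmin, which binds free tubulin, at 0.50 (adjusted p = 0.341, edgeR), and the minus-end binder Camsap3 at 0.36 (adjusted p = 0.243, edgeR).

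Kinases that phosphorylate MAPs, with their activators, had 1 of 16 called lower and 0 higher by edgeR (all genes: 2.36% and 0.71%). DESeq2 gave the same counts (all genes: 2.82% and 2.24%). The one that fell was Mapk8, encoding the stress kinase JNK1, from 52.9 ± 10.2 to 26.8 ± 6.31 CPM (log2 fold change -1.01 ± 0.21 SE, edgeR adjusted p = 0.00918). The highest were Cdk5r2, which encodes the CDK5 activator p39, at 0.64 (adjusted p = 0.0519, edgeR) and the tau tubulin kinase gene Ttbk1 at 0.40 (adjusted p = 0.282, edgeR). At an unadjusted p under 0.05, 1 was higher and 3 lower (all genes: 15.4% and 17.1%), and with the preparation as a block 2 were called higher and 3 lower (all genes: 11.8% and 13.2%). The median was -0.14. Of the 8 phosphatase genes, 0 were called by edgeR, by DESeq2 or with the block, and 1 was lower at an unadjusted p under 0.05 (all genes: 17.1%). Their log2 fold changes ran from -0.51 (Ppp2r2a, a regulatory subunit of PP2A) and -0.31 (Ppp3ca, the catalytic subunit of calcineurin) to 0.07 (Ppp1ca, a catalytic subunit of PP1) and 0.36 (Ppp2r1a, the PP2A scaffold), with a median of -0.11.

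**Figure D4:**
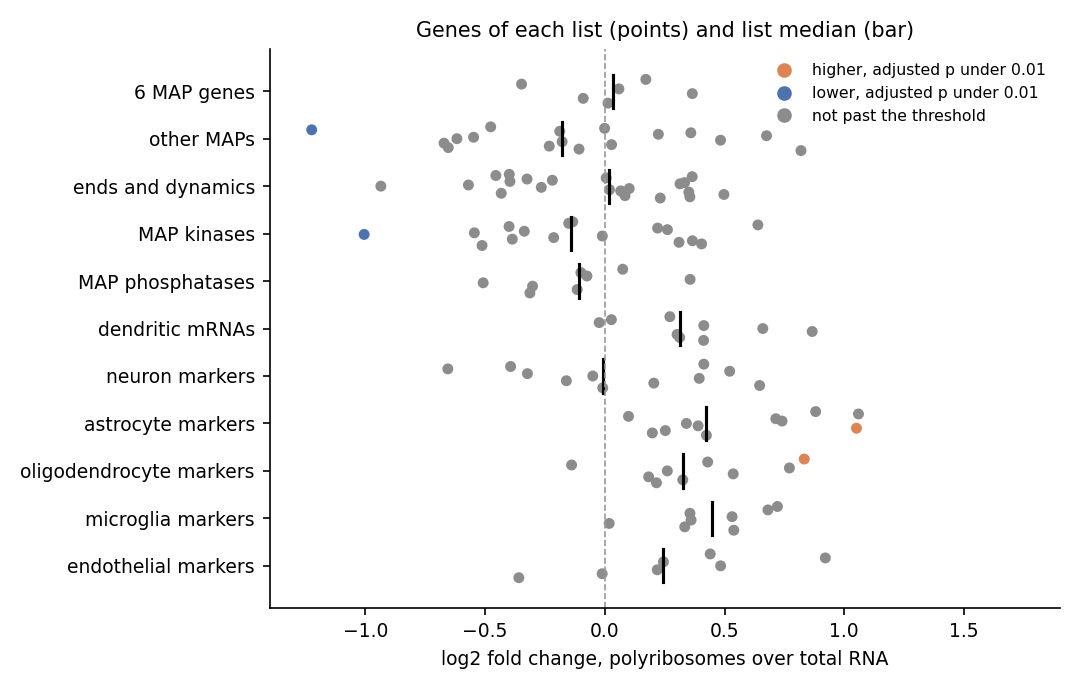
Log2 fold change on polyribosomes over total RNA for each tested gene (points) of the 6 MAP genes, further microtubule gene lists, dendritic mRNAs and cell type markers, with list medians as black bars. Coloured points passed the edgeR threshold. The 6 MAP genes run from -0.35 to 0.37 around a median of 0.04, and the medians of dendritic mRNAs and of glial markers lie to the right of 0.

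The genes whose level followed each MAP most closely over the 6 libraries were listed by the smallest root-mean-square difference in centred log2 CPM among 6656 genes with a mean of at least 20 CPM. For Map2 they were Rnf181 (0.052), Dnaja2 (0.052) and Psmc5 (0.059), where the median gene differed from Map2 by 0.28. Map4 was followed by Thop1 (0.026), Sowaha (0.033) and Fads1 (0.034), and Map1b by Fam65b (0.039), Ivns1abp (0.048) and Becn1 (0.051). Map1a was followed by Acot13 (0.077), Apc2 (0.096) and Kif13a (0.096), and Mapt by Snd1 (0.066), Lss (0.071) and Ank1 (0.076). Map6 was followed by Tmtc2 (0.028), Cstf2 (0.032) and Bnip3 (0.054). These are descriptions over 6 libraries that share their scaling, and no test was made.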

How the data were processed

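RNA depleted of ribosomal RNA from 6 libraries, 3 of unstimulated total RNA and 3 of stimulated polyribosomes, was sequenced by the authors. Per the study's methods and the submitters' processing notes (CASAVA 1.8.2, STAR 2.5.2b, HTSeq, bedtools, SAMtools), reads were mapped to GRCm38 and counted on the Gencode vM6 basic annotation. The authors deposited whole-number counts per protein-coding gene without normalization. The table also holds their DESeq2 comparison (mean, fold change, standard error, test statistic and p-values), which was not used. The libraries were strand-specific, but use of the strand in counting is not given in the sources used here.

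Counts were analysed with edgeR 4.0.16 in R 4.3.3 (TMM, filterByExpr, quasi-likelihood test, no term but the group) on the whole table of 21958 genes, of which 12255 were tested. The Benjamini-Hochberg adjustment ran over all of them, with a threshold of 0.01, as in the study. CPM are TMM-scaled, and values are mean ± SD over libraries. Shares and ratios were compared with two-sided exact permutation tests over libraries (SciPy 1.17.1). Exon lengths, GC content (99.9% of the genes tested had both) and sequences came from Gencode vM21 (GRCm38). The counting error is the root mean square over a group's libraries of the relative Poisson error of each count, and PCR copies are not independent molecules, so it covers counting only. Replicates differed by more than sampling noise, and since the labels do not say that they came from separate animals, p-values measure only the spread between these samples, which may be technical. The fits were checked on simulated counts with known changes. For the fit with group only, these counts held no preparation effect, so the check does not cover differences between preparations.

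The 6 genes and the lists were chosen with earlier results of these data known. The text names the 6 genes, all dendritic mRNAs, the genes of each list past the threshold (at most 8), the 2 highest and 2 lowest log2 fold changes of each microtubule list, and the 3 genes most like each MAP. One gene that this rule picks is not reported here. Cell type markers were only described, and Slc1a2 is named because it made up most of the astrocyte sum.

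Each preparation was divided into aliquots in the study's methods and the libraries carry matching numbers. Deviations from the group means of same-numbered libraries correlated across genes at 0.384, 0.278 and 0.407, and a further fit therefore took the replicate number as a block (paired samples). The other alternatives were DESeq2 1.42.0, other scalings and filters, a GC content and length offset (splines with 5 degrees of freedom), and leaving out each library.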

Additional observations from a re-analysis of the deposited data

How the results depend on the processing

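No MAP gene passed the threshold under any of 15 alternatives except Map4 under the replicate block with the GC and length offset (log2 fold change 0.43). The replicate block alone changed no call among the 6 genes. Map1b stayed lower and Map4 higher in all 15, with log2 fold changes from -0.45 to -0.03 and from 0.26 to 0.43, and Map6 stayed negative. With upper-quartile normalization Mapt was at -0.0017, and with total counts only, which moved the median of all genes to -0.11, Map2 was at -0.044 and Mapt at -0.092. Leaving out 1 library gave -0.068 to 0.40 for Map1a (negative without polyribosome replicate 3 or total RNA replicate 1), -0.031 to 0.13 for Map2 (negative without total RNA replicate 1) and -0.15 to 0.25 for Mapt (negative without polyribosome replicate 3 or total RNA replicates 1 or 2).

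Of the share differences between groups, that of Map2 was -0.134 percentage points when counts were taken per kilobase. Leaving out 1 library gave -0.302 to 5.51 points for Map1a, -1.27 to 1.53 for Map2, -0.184 to 0.00901 for Map6 and -0.303 to 0.245 for Mapt. Those of Map1b and Map4 kept their signs under every alternative, but the Map1b difference of -4.33 points ran from -2.20 (without total RNA replicate 1) to -6.08 (without total RNA replicate 3), and was -2.71 without polyribosome replicate 3. The ratio of Map1b to Map6 turned to 0.19 (log2) under the GC and length offset, an alternative for the ratios chosen after seeing the data.

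The background counts of genes called depended strongly on the setting. Beside 87 higher and 289 lower, total counts only gave 42 higher, DESeq2 274 higher, no filter on low counts 476 and 566, the replicate block 1441 and 1622, the GC and length offset 28 and 96, and both together 1033 and 919. Leaving out 1 library gave 0 to 61 higher and 22 to 208 lower by edgeR. The 0 came without total RNA replicate 2, where 1423 genes were higher at an unadjusted p under 0.05, and the counts also moved by over 1.5 times without polyribosome replicates 1, 2 or 3 or total RNA replicate 1. The cause was not tested. The shallowest library, total RNA replicate 3, limits Map6 most, with 72 counts.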

Other observations

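Among the 6 genes, the patterns over the 6 libraries were least far apart for Map2 and Map4 (root-mean-square difference 0.160 in centred log2 CPM), Map1b and Map6 (0.171) and Map1a and Mapt (0.178). Many other genes were closer. Among 6656 genes compared, Map4 was the 688th closest to Map2, Map6 the 705th closest to Map1b and Mapt the 240th closest to Map1a. The MAP1 genes were the least alike of the 15 pairs, at 0.511. Ppip5k1, the neighbour that overlaps Map1a on the opposite strand, was lower on polyribosomes (log2 fold change -0.61, edgeR adjusted p = 0.0301, and 2.78e-04 with the preparation as a block), while Map1a was at 0.17.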
